A study of Mus musculus with 33 samples.

Results

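The spindle assembly factors described here are 10 genes, taken by symbol from a table of 14862 genes: the kinase Aurora A (Aurka), its activator Tpx2, and Tacc3, Ckap5, Hmmr, Dlgap5, Nusap1, Ckap2, Ckap2l and Psrc1. All 10 were found in the table, and all 10 had at least 10 counts in each comparison. They were measured as read counts in 33 single cells from mouse heart ventricles, sorted from animals that carry the reporter mAG-hGem, in which green fluorescent Azami Green is joined to geminin and which builds up from S phase to mitosis and is destroyed as mitosis ends. The sort gave 4 groups: 10 mAG-hGem positive and 11 mAG-hGem negative cells of embryonic day 14.5 (E14.5), and 6 positive and 6 negative cells of postnatal day 5 (P5). All groups share the reporter, and the labels name neither the strain, the number of animals nor the driver of the transgene. Each sample is 1 cell and no animal is named, so each group counts as 1 sample and no test between groups was made.

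A mitotic spindle is built from microtubules that grow at the centrosomes and around the chromosomes. Aurora A is a protein kinase of centrosomes and spindle poles, and it becomes fully active on microtubules when Tpx2 binds it. Around the chromosomes the small GTPase Ran frees Tpx2 and other assembly factors from importins, and these then nucleate, bundle and stabilise microtubules. Most of these genes are transcribed from late S phase into mitosis, and their proteins are removed when mitosis ends. Heart muscle cells divide before birth, and after birth most of them leave the cell cycle, many with more than 1 nucleus.

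Values are counts per 1000000 (CPM) of a cell's or a group's total, and group values come from summed counts. Intervals in parentheses are at 95% and cover counting error only. That error is far smaller than the spread between cells, except where a group has only a few counts. A gene is called higher or lower when its log2 ratio between groups, with 0.5 count added to each side, is at least 2 in size, that is 4-fold. Depth per cell ran from 2.55 to 38.5 M counts (M stands for 1000000), and group medians were 11.5 to 16.9 M.

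The cell types did not all follow the labels, which describe every cell as a cardiomyocyte. The summed level of 11 cardiomyocyte markers was 13176 to 33362 CPM in the E14.5 positive cells and 13596 to 33137 CPM in the E14.5 negative cells. In 5 of the 6 P5 positive cells it was 18311 to 51379 CPM, and in the remaining one, L2P12, it was 62.3 CPM beside 4597 CPM of 6 endothelial markers. The 6 P5 negative cells had 0.207 to 3284 CPM of cardiomyocyte markers. Of these, 5 had 2944 to 13065 CPM of endothelial markers, while the fibroblast and mural list stood at 19199 CPM in L2N12. In N10, an E14.5 negative cell, that list stood at 46201 CPM and the cardiomyocyte list at 20376 CPM. The endothelial marker Cdh5 was at 0 in all 21 E14.5 cells. A comparison with the P5 negative cells therefore sets cell types side by side as well as reporter states or ages, and these cannot be told apart.

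The summed level of the 10 genes was low in most reporter negative cells and high in most reporter positive cells at both ages. Single genes departed from this: Psrc1 was at 6.81 CPM in E14.5 positive cells, Ckap5 at 28.9 and 28.1 CPM in the E14.5 and P5 negative cells, and Ckap2 at 67.3 CPM in the P5 negative cells. Of the 16 positive cells, 15 had at least 7 of the 10 genes at 10 CPM or more. None of the 17 negative cells had more than 6, and 9 had none. The summed level of the 10 genes ran from 259 CPM (cell G2) to 3845 CPM (G25) in E14.5 positive cells, with a median of 1497 CPM. In E14.5 negative cells it ran from 0 (N3) to 460 CPM (N24), with a median of 9.09 CPM. P5 positive cells ran from 5.73 CPM (L2P10) to 3221 CPM (L2P8), with a median of 2435 CPM, and P5 negative cells from 0.142 CPM (L1N3) to 349 CPM (L2N9), with a median of 24.2 CPM. The E14.5 positive and negative ranges overlapped only through N24, whose sum lay above that of G2. The P5 ranges overlapped through L2P10, a cell labelled positive with 47859 CPM of cardiomyocyte markers, 1.35 CPM of geminin (Gmnn) and none of the 10 genes at 10 CPM.

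**Figure D1:**
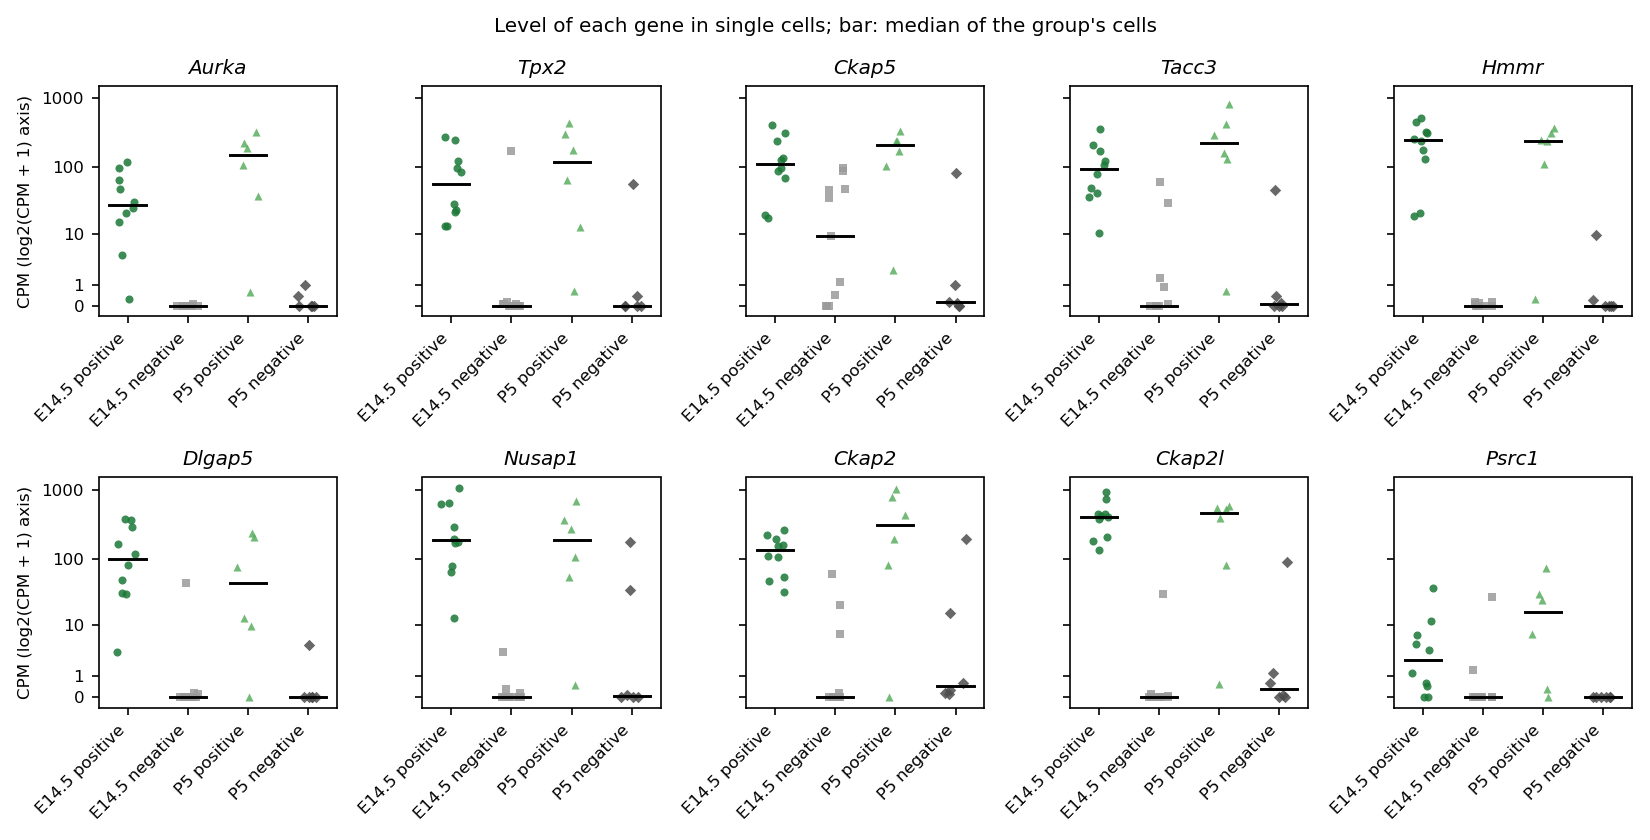
Level of each of the 10 genes in each cell, on a log2(CPM + 1) axis labelled in CPM, for the 10 positive and 11 negative cells of E14.5 and the 6 positive and 6 negative cells of P5. Points are cells and black bars are medians. Aurka and Hmmr stayed below 10 CPM in all 17 negative cells, while Ckap5 reached 10 CPM in 6 of them.

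The promoters of the genes are shown because 9 of the 10 were called higher in reporter positive cells at both ages. The RefSeq promoter table (GRCm38.p6, the same assembly as mm10, from 250 bases before to 50 after the start) holds 8 of the 10 genes and not Tpx2 or Dlgap5. Each window was searched on both strands for TTTGAA, the core of the cell cycle genes homology region (CHR) through which DREAM and B-Myb complexes act, and for CCAAT, the box bound by NF-Y. The motifs do not overlap each other. CHR letters were in 5 of the 8 genes, against 18.1% of 27025 promoters in the table, and CCAAT in 6 of 8, against 37.9%. Both were in 5 of 8, namely Aurka, Ckap5, Hmmr, Ckap2 and Ckap2l, against 7.12% of all promoters. Psrc1 had CCAAT alone, and Nusap1 and Tacc3 had neither. A match is only a match of letters and says nothing of binding.

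The windows below are those of 3 genes with both motifs, which differ in number and spacing, and of Nusap1, a gene with neither motif whose level followed Aurka closely between cells. They are Aurka, chr2:172370521-172370820 on the minus strand, Hmmr, chr11:40733388-40733687 on the minus strand, Ckap2l, chr2:129297163-129297462 on the minus strand, and Nusap1, chr2:119618048-119618347 on the plus strand. Capitals mark the letters of either motif, read on either strand.
Aurka: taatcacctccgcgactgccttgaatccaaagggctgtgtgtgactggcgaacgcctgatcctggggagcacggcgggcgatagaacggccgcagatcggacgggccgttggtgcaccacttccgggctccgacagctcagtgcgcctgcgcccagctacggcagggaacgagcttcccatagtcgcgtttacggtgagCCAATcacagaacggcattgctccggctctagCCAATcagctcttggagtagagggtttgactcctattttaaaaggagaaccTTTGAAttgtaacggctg
Hmmr: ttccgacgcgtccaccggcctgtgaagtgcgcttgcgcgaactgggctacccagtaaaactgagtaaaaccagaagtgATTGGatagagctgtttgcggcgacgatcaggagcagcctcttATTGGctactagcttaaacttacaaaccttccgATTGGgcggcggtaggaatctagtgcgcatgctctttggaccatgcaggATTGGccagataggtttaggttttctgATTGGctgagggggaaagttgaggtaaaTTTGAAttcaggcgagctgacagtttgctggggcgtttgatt
Ckap2l: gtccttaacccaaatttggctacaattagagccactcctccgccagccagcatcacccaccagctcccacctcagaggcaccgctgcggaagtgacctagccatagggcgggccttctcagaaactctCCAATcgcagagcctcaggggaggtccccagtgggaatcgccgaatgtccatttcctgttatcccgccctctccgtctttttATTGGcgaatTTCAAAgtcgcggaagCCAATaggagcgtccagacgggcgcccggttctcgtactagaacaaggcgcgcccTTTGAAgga
Nusap1: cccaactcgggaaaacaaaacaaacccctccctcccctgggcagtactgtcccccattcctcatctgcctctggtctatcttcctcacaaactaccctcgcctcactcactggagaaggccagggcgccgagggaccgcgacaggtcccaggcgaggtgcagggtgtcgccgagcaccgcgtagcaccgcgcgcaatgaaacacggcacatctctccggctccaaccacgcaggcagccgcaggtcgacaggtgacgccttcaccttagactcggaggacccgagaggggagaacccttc
Counted from the start site at +1 by the motif's leading base, Aurka has CCAAT at -51 and -19 and CHR at +33. Hmmr has 5 reversed CCAAT boxes between -172 and -20, and CHR at +9. Ckap2l has 3 CCAAT boxes, at -122, -40 and -14, and CHR at -30 and +42.

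Aurka (chromosome 2, 172356190 to 172370535, minus strand) and Tpx2 (chromosome 2, 152847964 to 152895321, plus strand) encode the kinase and its activator. Aurka had the fewest counts of the 10 genes in E14.5 negative cells. At that age it stood at 49.9 CPM (48.9 to 51.1) in positive cells and had 1 count in all negative cells together. Single E14.5 positive cells ran from 0.231 CPM (G6) through a median of 27.3 to 118 CPM (G25), and the highest negative cell, N10, was at 0.0534 CPM. The ranges did not overlap, but only at trace level, as G6 had 2 Aurka counts and N10 had 1. The log2 ratio was 13.25 with a counting interval of 10.78 to 18.56, wide because it rests on that 1 count. At P5 the levels were 191 CPM (188 to 194) in positive and 0.157 CPM (0.0834 to 0.268) in negative cells, a log2 ratio of 10.25 (9.48 to 11.16). P5 positive cells ran from 0.557 CPM (L2P10) through a median of 149 to 328 CPM (L2P8). L2P10 lay below the highest negative cell, L2N9 at 0.999 CPM, so the P5 ranges overlapped by that cell.

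Aurka reached 10 CPM in 8 of 10 E14.5 positive cells (80%, exact binomial interval 44.4 to 97.5%) and in 5 of 6 P5 positive cells (83.3%, 35.9 to 99.6%). No negative cell reached it, and the exact interval then allows up to 28.5% of such cells at E14.5 (0 of 11) and up to 45.9% at P5 (0 of 6). The E14.5 positive cells below 10 CPM were G2 and G6.

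Tpx2 was high in the same positive cells, but it also reached 10 CPM in 2 negative cells in which Aurka did not. It stood at 112 CPM (110 to 114) in E14.5 positive and 20.8 CPM (20.1 to 21.4) in E14.5 negative cells. E14.5 positive cells ran from 13.1 CPM (G2) through a median of 56.1 to 276 CPM (G25). In the negative cells 99.9% of the counts came from N24, at 174 CPM, and the next cell was at 0.119 CPM. This gave a log2 ratio of 2.43 (2.38 to 2.48), which was 11.53 without N24. At P5 it was 4.96 (4.85 to 5.08), from 236 CPM against 7.57 CPM, and 98.2% of the negative counts came from L2N9 at 56.0 CPM. Without L2N9 it was 10.53.

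N24 and L2N9 had high levels of S phase genes. The summed CPM of 41 S phase genes passed 12000 in 4 of the 33 cells, which were L2N4 at 25699, N24 at 22870, G6 at 16948 and L2N9 at 12683 CPM. Aurka was at 0.388, 0, 0.231 and 0.999 CPM in these cells, in that order, and Tpx2 at 0, 174, 13.2 and 56.0 CPM. So 3 of the 4 cells carried Tpx2 with Aurka below 1 CPM. Counting each pair within a cell, G6 had 57 Tpx2 counts per Aurka count and L2N9 had 56.1, from 2 and 11 Aurka counts. These cells were picked out after their values were seen.

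**Figure D2:**
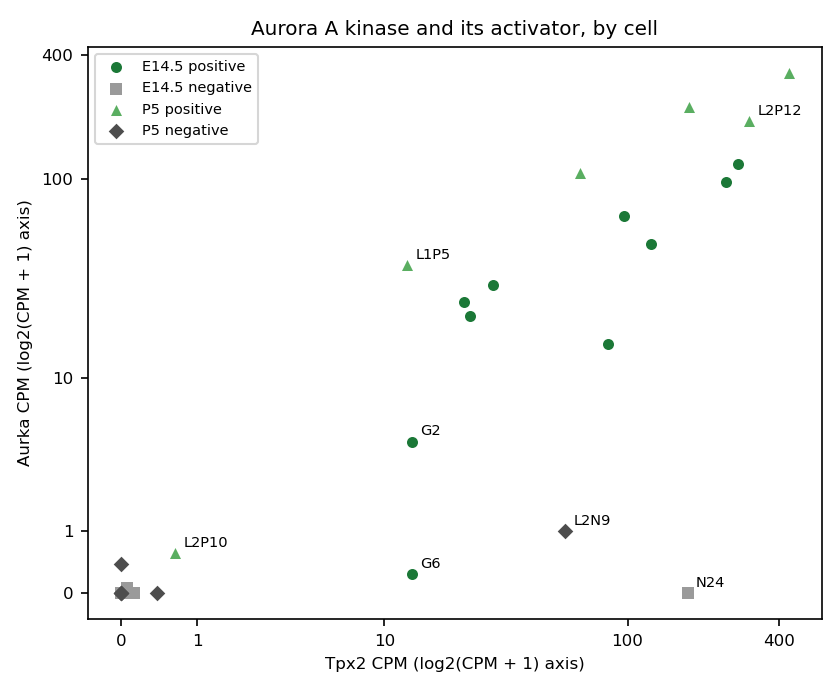
Aurka against Tpx2 in each cell, both on log2(CPM + 1) axes labelled in CPM, with symbols for the 4 groups. N24 sits at 174 CPM of Tpx2 with no Aurka count, L2N9 and G6 sit below 1 CPM of Aurka, and in the other positive cells except L2P10 both genes are above 4 CPM.

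The balance of the pair within a cell also lay lower at P5. In E14.5 positive cells there were 0.890 (G28) to 57 (G6) Tpx2 counts per Aurka count, with a median of 2.45. In P5 positive cells there were 0.333 (L1P5) to 1.59 (L2P12), with a median of 0.964. The ranges overlapped: 8 of 10 E14.5 and 3 of 6 P5 positive cells were above 1. The value of G6 rests on 2 Aurka counts. The 3 P5 cells were L2P8 at 1.34, L2P12, the cell with endothelial markers, and L2P10 at 1.14. That of L2P10 came from only 8 Tpx2 and 7 Aurka counts. Aurka made up 2.64% of the counts of the 10 genes in E14.5 positive cells and 8.30% in P5 positive cells.

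Tacc3 (chromosome 5, 33658128 to 33678995, plus strand) is a substrate of Aurora A that, once phosphorylated, binds kinetochore fibres with clathrin. It recruits Ckap5 (chromosome 2, 91526762 to 91620664, plus strand), a microtubule polymerase that also serves interphase microtubules. Ckap5 was the gene of the 10 found in most negative cells. At E14.5 it stood at 151 CPM (149 to 153) in positive and 28.9 CPM (28.1 to 29.6) in negative cells, a log2 ratio of 2.39 (2.35 to 2.43). Positive cells ran from 17.5 CPM (G2) through a median of 111 to 403 CPM (G29), and negative cells from 0 through a median of 9.09 to 95.9 CPM (N8), with 5 of 11 at 10 CPM or more. The ranges overlapped widely, and without G29 the log2 ratio was 1.98, below 4-fold. At P5 positive cells were at 186 CPM, negative cells at 28.1 CPM, and 99.1% of the negative counts came from L2N7 at 81.3 CPM. The log2 ratio there was 2.73 (2.66 to 2.79), and 8.95 without L2N7.

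Tacc3 had larger ratios between reporter groups than its partner. It stood at 142 CPM (140 to 144) in E14.5 positive and 9.21 CPM (8.78 to 9.64) in E14.5 negative cells, a log2 ratio of 3.95 (3.88 to 4.02). Positive cells ran from 10.2 CPM (G2) through a median of 93.3 to 354 CPM (G25), and 2 negative cells overlapped them, N24 at 60.8 and N5 at 29.4 CPM. Without N24 the log2 ratio was 5.997. At P5 it was at 258 CPM against 8.04 CPM, a log2 ratio of 5.00 (4.89 to 5.12). P5 positive cells ran from 0.636 CPM (L2P10) through a median of 225 to 811 CPM (L1P5), the shallowest cell of the series. In the negative cells 99.6% of the counts came from L2N10 at 45.9 CPM, and without it the log2 ratio was 12.30. Of the annotated exon bases of Tacc3, 8.14% are shared with Tmem129 on the opposite strand, and whether the counting used strand is not given in the sources used here.

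Hmmr (chromosome 11, 40701395 to 40733422, minus strand) encodes RHAMM, which binds spindle microtubules and helps to place Tpx2. Dlgap5 (chromosome 14, 47387779 to 47418407, minus strand) encodes HURP, a substrate of Aurora A that stabilises kinetochore fibres near chromosomes. Hmmr separated the E14.5 groups too, at a higher level than Aurka and with a wider gap between cells. It stood at 251 CPM (249 to 254) in positive cells and at 0.0358 CPM (0.0144 to 0.0738), 7 counts in all, in negative cells. Positive cells ran from 18.6 CPM (G2) through a median of 245 to 515 CPM (G5), and no negative cell passed 0.119 CPM. The log2 ratio was 12.78 (11.73 to 14.09). At P5 it was 222 CPM against 1.28 CPM, a log2 ratio of 7.44 (7.16 to 7.73), with 99.1% of the negative counts in L2N9 at 9.53 CPM. P5 positive cells other than L2P10, at 0.239 CPM, were at 110 to 366 CPM.

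Dlgap5 varied widely among positive cells at P5. At E14.5 it stood at 203 CPM (201 to 205) in positive and 5.18 CPM (4.86 to 5.50) in negative cells, where 99.5% of the counts came from N24 at 43.2 CPM. Positive cells ran from 3.45 CPM (G2) through a median of 98.4 to 381 CPM (G27), so N24 overlapped them. The log2 ratio was 5.29 (5.20 to 5.39), and 12.63 without N24. The 6 P5 positive cells were at 0 (L2P10), 9.60 (L2P12), 12.8 (L2P3), 75.8 (L1P5), 204 (L2P7) and 236 CPM (L2P8), and 66.6% of the counts came from L2P8. L2P3 and L2P12, low in Dlgap5, were not low in the other genes of the kinetochore fibre, with 339 and 243 CPM of Ckap5 and 130 and 289 CPM of Tacc3. The P5 log2 ratio was 7.36 (6.97 to 7.78), and all 52 negative counts came from L2N9 at 4.72 CPM. Without L2N9 the log2 ratio was 13.85, and without L2P8 it was 6.26.

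Nusap1 (chromosome 2, 119618298 to 119651244, plus strand) binds and bundles microtubules near chromosomes under the control of importins. It was the second most abundant of the 10 genes per length in E14.5 positive cells. It stood at 373 CPM (370 to 376) in E14.5 positive and 0.460 CPM (0.370 to 0.566) in negative cells, with cells at 12.7 CPM (G2) through a median of 183 to 1057 CPM (G25) against at most 3.52 CPM (N24). The ranges did not overlap, and the log2 ratio was 9.66 (9.36 to 9.98), and 12.88 without N24. At P5 the ratio was much lower, at 3.16 (3.10 to 3.21), from 313 CPM against 35.1 CPM. Here 2 negative cells held the gene, L2N9 at 174 and L2N7 at 34.9 CPM. In positive cells L2P12 held 53.6% of the counts at 687 CPM, and the median cell was at 185 CPM. Nusap1 shares 4.24% of its exon bases with Oip5 on the opposite strand.

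Ckap2 (chromosome 8, 22168160 to 22185819, minus strand) encodes a spindle protein that promotes microtubule growth, and Ckap2l (chromosome 2, 129268210 to 129297212, minus strand) its paralogue at spindle poles and the midzone. Ckap2l was the most abundant of the 10 genes per length in both positive groups. At E14.5 it stood at 444 CPM (441 to 448) in positive and 3.61 CPM (3.34 to 3.88) in negative cells, with positive cells at 132 CPM (G2) through a median of 407 to 933 CPM (G25). Negative cells reached at most 30.1 CPM, in N24, so the ranges did not overlap, and the log2 ratio was 6.95 (6.84 to 7.05). Without N24 it was 14.42. At P5 it was 435 CPM against 12.2 CPM, a log2 ratio of 5.16 (5.07 to 5.25), and 96.1% of the negative counts came from L2N9 at 88.2 CPM. Ckap2l reached 50 CPM in all 10 E14.5 positive cells, which none of the other 9 genes did.

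Ckap2 was less separated. It stood at 160 CPM (158 to 162) in E14.5 positive and 9.39 CPM (8.96 to 9.83) in E14.5 negative cells, a log2 ratio of 4.09 (4.03 to 4.16). Positive cells ran from 31.7 CPM (G10) through a median of 132 to 262 CPM (G29), and N24, at 59.9 CPM, overlapped them. Without N24 the log2 ratio was 5.97. At P5 it was 331 CPM against 67.3 CPM, and 96.8% of the negative counts came from L2N7 at 190 CPM. The log2 ratio was 2.30 (2.26 to 2.34), 6.65 without L2N7, and below 4-fold without L2P3 (1.83) or L2N12 (1.97). L1P5, at 1029 CPM, and L2P3, at 792 CPM, were the highest P5 positive cells, and L2P10 had no count.

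Psrc1 (chromosome 3, 108383839 to 108388231, plus strand) encodes DDA3, which recruits a microtubule depolymerase to the spindle. It was the least abundant of the 10 genes per length in both positive groups and the only one not called at E14.5. It stood at 6.81 CPM (6.41 to 7.23) in positive and 2.44 CPM (2.23 to 2.67) in negative cells, a log2 ratio of 1.48 (1.32 to 1.64). Positive cells ran from 0 (G5, G6) through a median of 2.46 to 36.3 CPM (G25), and N30, at 27.4 CPM, held 96.7% of the negative counts. The ratio was 0.44 without G25 and 6.21 without N30, so single cells set it. At P5 it stood at 26.6 CPM (25.6 to 27.7) in positive cells and had no count in the 6 negative cells. That is at least 736-fold higher, against a floor of 3 counts over the negative group, and L2P12 held 66.2% of the positive counts at 72.1 CPM. Without L2P12 the bound was 329-fold.

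Per length, as CPM per kilobase of annotated exon, the E14.5 positive cells had 142 for Ckap2l, 91.8 for Nusap1, 49.9 for Ckap2, 46.3 for Hmmr, 39.9 for Tacc3, 29.8 for Dlgap5, 23.9 for Tpx2, 19.7 for Aurka and 2.03 for Psrc1, with Ckap5 between these last. In P5 positive cells Aurka stood at 75.5 and Dlgap5 at 15.1 CPM per kilobase, while Ckap2l was again highest, at 139, and Psrc1 lowest, at 7.91. The cells of a group spread over 8-fold or more for most genes, so neighbours in this order are not told apart.

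**Figure D3:**
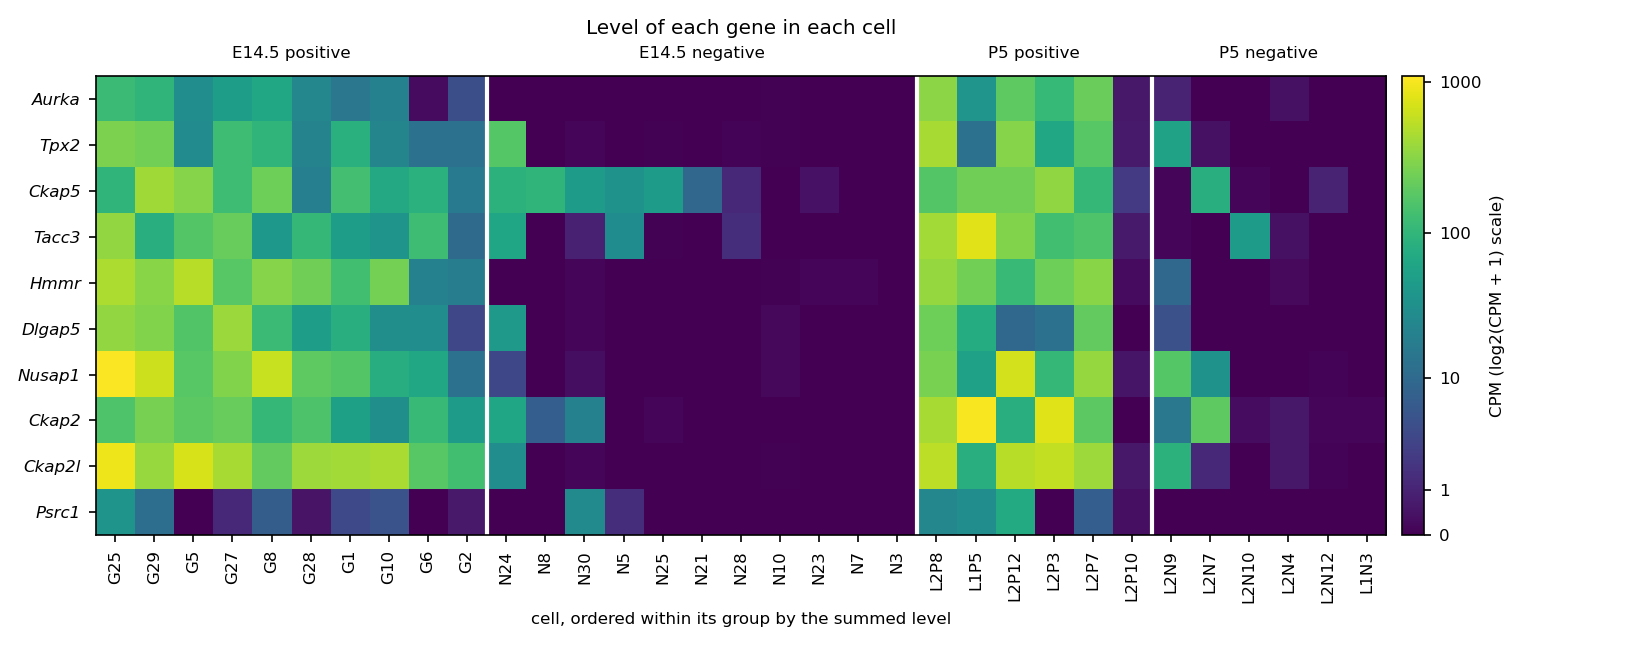
Level of the 10 genes (rows) in the 33 cells (columns, ordered within each group by their summed level), with colour on a log2(CPM + 1) scale labelled in CPM. Positive cells are filled in nearly all rows except L2P10, and among negative cells N24, L2N9 and L2N7 carry only part of the set.

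Between reporter positive and negative cells at E14.5, 9 of the 10 genes were called higher and none lower, with Psrc1 at 1.48. Over all 12616 genes with at least 10 counts, 14.4% were called higher and 17.4% lower. The median log2 ratio of the 10 genes was 4.69, beside -0.16 over all genes. For 4 genes, Aurka, Hmmr, Nusap1 and Ckap2l, every positive cell was above every negative cell, which held for 0.198% of all genes. For Aurka this rested on 2 counts in G6 against 1 in N10. Several ratios rest on N24, and without it the median was 12.01. The titles of the E14.5 cells carry numbers 1 to 10 or 21 to 30, whose meaning is not stated. The 4 positive cells numbered 21 to 30 were deeper (16.8 to 38.5 M) than the 6 numbered 1 to 10 (8.40 to 12.8 M), and their part in the ratios was not tested. All 10 genes had the higher group level in the cells numbered 21 to 30, by most in Dlgap5, at 278 against 74.7 CPM, and Tpx2, at 150 against 46.5 CPM. Nusap1 was at 466.5 against 213, Ckap2 at 201 against 90.7, Tacc3 at 184 against 70.5 and Aurka at 64.1 against 25.9 CPM, and Ckap5 differed least, at 152 against 151 CPM. Within numbers 1 to 10 the median log2 ratio of the 10 genes was 10.08 with 10 called, beside 0.02 over all genes. Within 21 to 30 their median was 4.68 with 9 called, beside -0.31 over all genes. N24 is among the negative cells numbered 21 to 30. The share of all genes called was not counted within either set of numbers.

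Between positive and negative cells at P5, all 10 genes were called higher, beside 26% of 11551 genes called higher and 27.8% called lower. Their median log2 ratio was 5.08, also with Psrc1 at its bound, and that of all genes was -0.29. The groups overlapped for all 10 genes, beside 1.43% of all genes with every positive cell above every negative cell. For 9 genes L2P10 lay below the highest negative cell, and for Psrc1 L2P3 was at 0 like the negative cells. L2N9 or L2N7 held most negative counts of each gene except Tacc3, where L2N10 did, and Psrc1, which had none. Without L2N9 the median was 10.08. Without that cell Aurka was at 12.43, Hmmr at 13.38, Ckap2l at 9.63 and Nusap1 at 4.51, and Nusap1 was at 2.45 without L2P12. Of the P5 positive cells, L2P12 is the one with endothelial markers, which also lead in 5 of the 6 negative cells, and its summed level of the 10 genes was 2510 CPM, beside 349 CPM in the highest negative cell.

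Between positive cells of the 2 ages, none of the 10 genes was called higher or lower at P5, beside 19.8% of 12246 genes called higher and 29.2% called lower. At a limit of 2-fold 4 were higher, beside 30.3% of genes. The log2 ratios of P5 over E14.5 were 1.97 (1.86 to 2.07) for Psrc1, 1.94 (1.90 to 1.98) for Aurka, 1.08 (1.05 to 1.11) for Tpx2, 1.05 (1.02 to 1.07) for Ckap2, 0.86 (0.84 to 0.89) for Tacc3 and 0.30 (0.27 to 0.32) for Ckap5. Those of Ckap2l (-0.03), Hmmr (-0.18) and Nusap1 (-0.25) were close to 0, and Dlgap5 was lowest at -0.98 (-1.01 to -0.95). The ranges of cells overlapped for all 10 genes; groups did not overlap for 0.261% of all genes in the higher and 0.719% in the lower direction. Their median was 0.58 and that of all genes -0.39. With DESeq2 size factors the median of all genes moved to -0.00, and Ckap2l, Hmmr and Nusap1 became 0.35, 0.20 and 0.13. With edgeR TMM factors it moved to -0.23, and Ckap2l became 0.13.

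Aurka and Psrc1 lay just under the 4-fold limit at P5, and single cells moved them across it. Aurka was at 2.06 without L2P3, 2.15 without L2P10, 2.19 without G25 and 2.15 without G29, and at 1.44 without L2P8. Psrc1 was at 3.003 without G25 and at 2.01 to 2.23 without L2P3, L2P7, L2P8, L2P10 or G29, but at 0.81 without the endothelial-like cell L2P12. Dlgap5 was at -2.07 without L2P8. Nusap1 was at -0.95 without L2P12. Without L2P8 Tpx2 was at 0.46. With both scalings above, Aurka (2.32 and 2.09) and Psrc1 (2.35 and 2.12) were called higher. Both scalings also raised the median of all genes, and the share of all genes called with them was not counted.

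Between negative cells, P5 over E14.5, 4 genes were called higher and 2 lower, beside 23.8% and 32.7% of 12534 genes. For 10 genes these counts lie near the background. The summed cardiomyocyte markers had medians of 60.9 CPM in P5 and 21619 CPM in E14.5 negative cells. Age and cell type therefore cannot be told apart here. Nusap1 (6.25), Hmmr (5.16), Aurka (4.94) and Ckap2 (2.84) were higher, Dlgap5 was lower at -3.05, and Psrc1 was at least 67.6-fold lower. Aurka rested on 13 counts at P5 and 1 at E14.5, with a log2 interval of 2.20 to 10.35. Hmmr rested on 106 and 7 counts, at 1.28 and 0.0358 CPM. Without N30, 16 Psrc1 counts remained and the bound was 2.48-fold. Without L2N9 Aurka was at 2.18 and Nusap1 at 4.90, and Nusap1 was at 9.47 without N24. Without L2N7 Ckap2 was at -1.51, without L2N9 Hmmr was at -0.88, and without N24 Dlgap5 was at 4.31. The median of the 10 genes was 0.86, also with Psrc1 at its bound, beside -0.28 over all genes. It was -1.35 without L2N9, -0.23 without L2N7 and 4.51 without N24. The comparisons above share groups with one another, so their values are given side by side only.

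**Figure D4:**
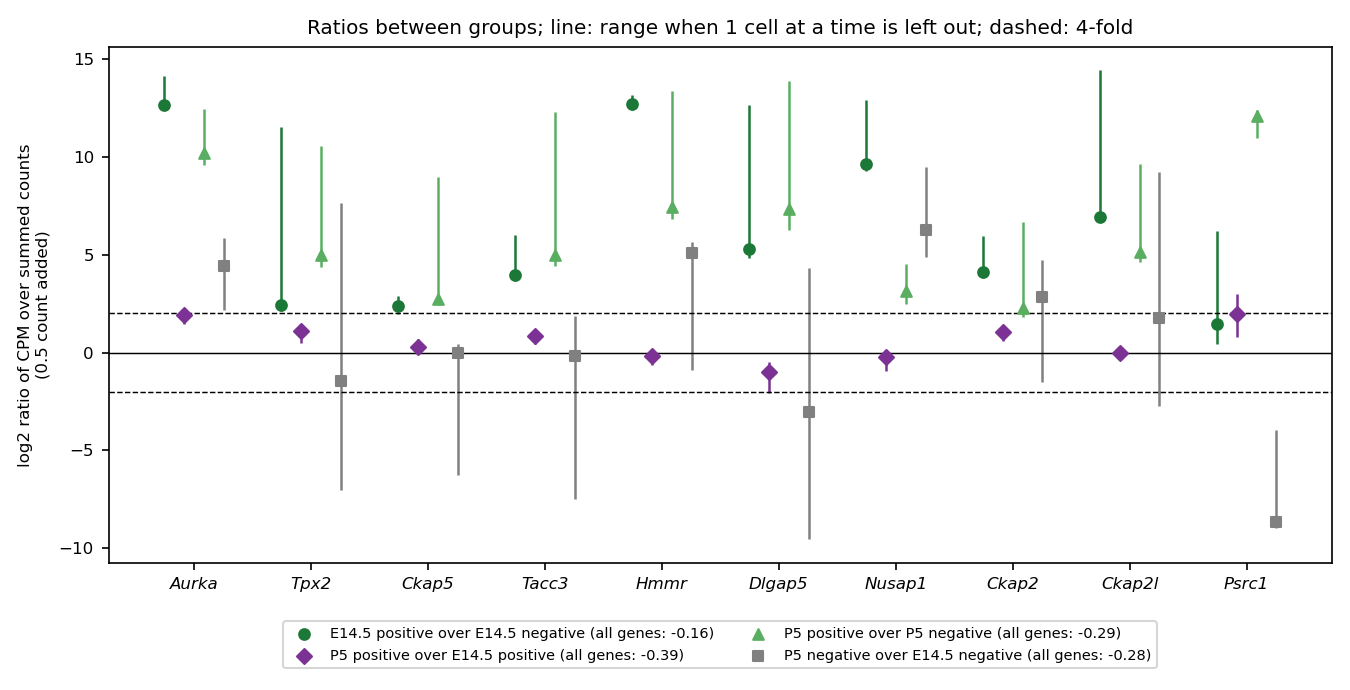
Log2 ratio of each gene in the 4 comparisons (0.5 count added to each side), with a line for the range when 1 cell at a time is left out, dashed lines at 4-fold, and the median of all genes in the legend. Both positive over negative comparisons lie above 0 for all 10 genes, and the ratios between negative groups cross 0 for 7 genes when a cell is left out.

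How closely the 10 genes followed one another depended on the cells taken. Over all 33 cells the median Spearman rho of the 45 pairs was 0.78, from 0.49 for Ckap2 and Psrc1 to 0.93 for Tpx2 and Nusap1. The cells share depth and reporter group, so rho is given as a description. Within the 10 E14.5 positive cells the median was 0.60, from -0.07 for Tacc3 and Psrc1 to 0.96 for Aurka and Nusap1. Aurka and Tpx2 were at 0.89 there, and Aurka and its substrate Tacc3 at 0.44. Within the 6 P5 positive cells the median was 0.37, with 18 of the 45 pairs above 0.5 and 4 below 0, the lowest being Nusap1 and Ckap2 at -0.14.

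In E14.5 positive cells the sum of the 10 genes ran with that of G2/M genes and opposite to that of S phase genes. Its rho with the sum of 44 other G2/M genes was 0.90 over all cells and 0.94 in the E14.5 positive cells. With 41 S phase genes it was 0.38 over all cells and -0.73 in the E14.5 positive cells, where G6, with the highest S phase sum, had 627 CPM of the 10 genes and G25, at 2646 CPM of S phase genes, had 3845 CPM. With geminin it was 0.54 and -0.13. Depth moved with it too, at 0.19 over all cells and 0.66 in the E14.5 positive cells, and its part was not tested.

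**Figure D5:**
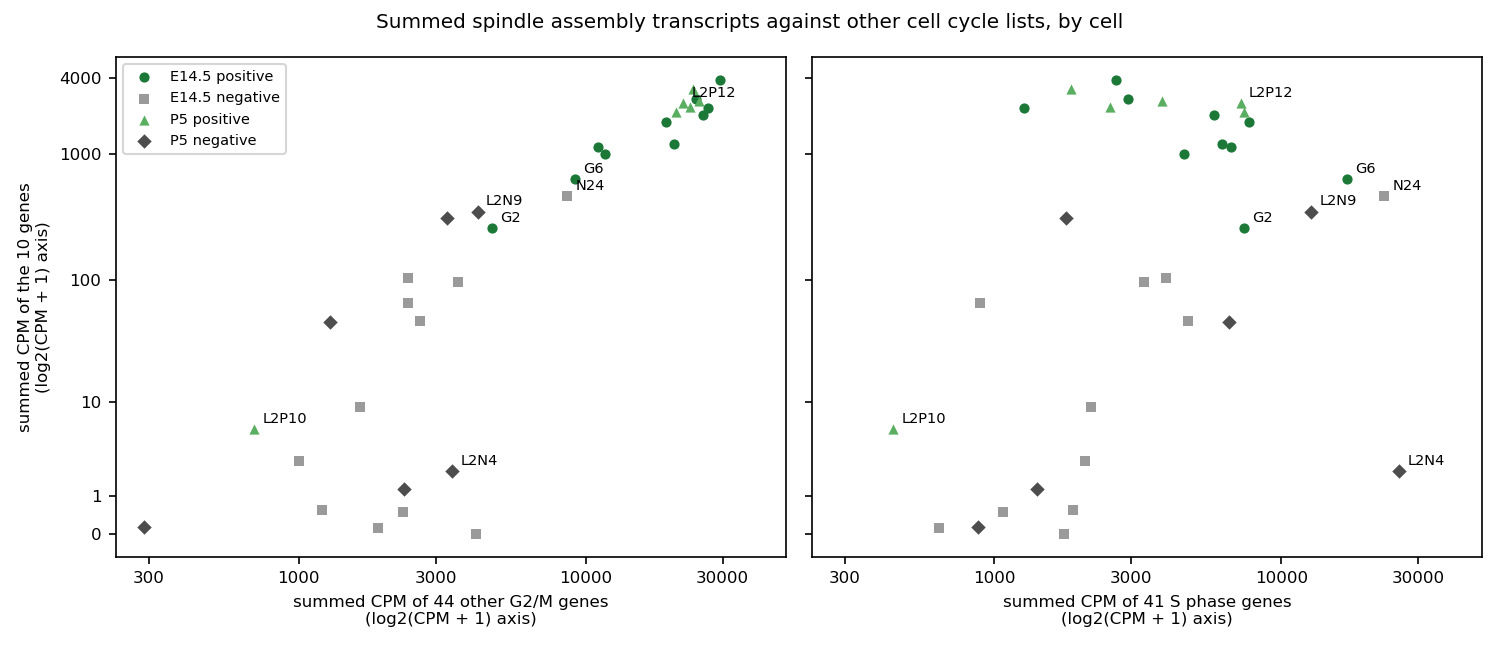
Summed CPM of the 10 genes in each cell against the summed CPM of 44 other G2/M genes (left) and of 41 S phase genes (right), all on log2(CPM + 1) axes labelled in CPM, with the 4 groups as symbols. The points form a band on the left, while on the right L2N4, N24, G6 and L2N9 hold the highest S phase sums with 2.14 to 627 CPM of the 10 genes.

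Of 7259 other genes with a mean of at least 10 CPM, the 6 whose level was most like the sum of the 10 over the 33 cells were Cenpa (rho 0.91), Cdk1 (0.89), Kif23 (0.88), Top2a (0.88), Cks2 (0.88) and Ccnb1 (0.88). Plk1, the mitotic kinase that Aurora A activates, was at rank 18 with 0.85. Aurkb, the kinase of the chromosomal passenger complex, was at rank 96 with 0.73. Within the 10 E14.5 positive cells Ccnb1 was first, at 0.98. Cenpa and Plk1 were among several genes tied at rank 2, with 0.95, so the first 6 cannot be told apart there. Aurkb was at rank 2564, with 0.03. Plk1 stood at 30.9 against 0.312 CPM in positive and negative cells of E14.5, and at 106 against 1.07 CPM at P5. Aurkb stood at 60.4 against 1.93 CPM and at 128 against 22.4 CPM.

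Other genes of the pathway were read from 5 lists, whose counts stand beside the shares of all genes: 14.4% called higher and 17.4% lower at E14.5, and 26% and 27.8% at P5. Of 8 measured regulators of Aurora A and related kinases, 4 were called higher in E14.5 positive than negative cells and none lower, from Plk1 at 6.62 to Ajuba, an activator at the centrosome, at -1.65. At P5, 5 were higher in positive cells and 1 lower, namely Nedd9, a scaffold that binds Aurora A, at -6.48. Between positive cells of the 2 ages 1 was higher at P5, Fzr1, the ubiquitin ligase subunit that targets Aurora A, at 2.52, and 3 were lower, with Nedd9 lowest at -4.12, beside 19.8% and 29.2% of all genes.

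Of the 6 genes of Ran and its importins, 3 were called higher in E14.5 positive cells and none lower, with the importin alpha Kpna2 at 4.10 and the importin beta Kpnb1 at 0.57. At P5, 2 were higher, with Kpna2 at 4.195, and none was lower, beside 26% and 27.8% of all genes. Kpna2 was also the highest of them between ages, at 2.19, and Rcc1, the exchange factor of Ran, the lowest at -2.65.

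Of 16 augmin and gamma-tubulin genes, which nucleate microtubules, 2 were called higher and 1 lower in E14.5 positive cells, with a median of 0.78, beside 14.4% and 17.4% of all genes. At P5, 4 were higher and 4 lower, beside 26% and 27.8%. The counts called higher thus lay near the background at both ages, as did the count called lower at P5. The augmin subunit Haus6 stood at 61.7 against 0.665 CPM in positive and negative cells of E14.5, but at 0.119 CPM in the positive cells of P5. Tubgcp4 was lowest at E14.5, at -3.27.

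Of 13 spindle pole and motor genes, 11 were called higher in E14.5 positive cells and none lower, with a median of 4.98, and 9 were higher and 1 lower at P5, with a median of 6.38. Kif2c, a microtubule depolymerase, stood at 74.4 CPM in E14.5 positive cells with 0.00511 CPM in negative cells. Aspm, a pole protein, was at 126 against 0.0121 CPM at P5. Numa1, which also serves the interphase nucleus, was lowest in both, at -1.85 and -4.55.

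Of 13 tested plus end, kinetochore fibre and TACC genes, 4 were called higher and none lower at E14.5, beside 14.4% and 17.4% of all genes. Of 14 at P5, 8 were higher and 1 lower, beside 26% and 27.8%. Ska2, of the complex that holds kinetochores to microtubules, was highest at E14.5, at 5.41. Tacc1, a relative of Tacc3, was lowest in both, at -1.18 and -2.39. Spag5, which binds spindle microtubules, was at 70.3 CPM in the positive cells of P5 and without a count in the negative ones. The 44 other G2/M genes had medians of 3.86 at E14.5 and 4.05 at P5, with 37 and 36 called higher, and the 41 S phase genes 0.29 and -1.13, with 2 and 4 called higher and 3 and 13 called lower. None of the G2/M genes was called lower in either.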

How the data were processed

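Single cells from mouse heart were sorted by reporter signal, their mRNA was amplified as antisense RNA, and TruSeq libraries were made, per the labels' protocols. The authors deposited whole-number read counts per gene and cell. The submitters' processing notes name CASAVA 1.8.2, STAR 2.4.0j, HTSeq 0.6.1p1 and the build mm10. The annotation, the strand setting and any use of molecular identifiers are not given in the sources used here. Amplified reads are not independent molecules, so intervals cover counting error only. The table holds 14862 gene rows, of which 22 turned into dates stay in the totals and out of all lists.

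Counts were summed per group and given as CPM with exact Poisson intervals, and ratios have exact Clopper-Pearson intervals. With 1 sample a group there was no test. Genes needed at least 10 counts over both groups, 0.5 count was added to call ratios of 4-fold, and a group at 0 was set to a floor of 3 counts over all its cells. For shares of cells exact binomial intervals were used. Cells were also thinned to 8671357 counts, which left out 6. Scaling alternatives used edgeR 4.0.16 (TMM) and DESeq2 1.42.0 (size factors) in R 4.3.3, and the other calculations used Python 3.11.15 with scipy 1.17.1. The calculation was tested on simulated Poisson counts with no added spread between cells. Changes were set there only in genes with ample counts. Groups with few counts, or with most counts in 1 cell, were not covered.

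All 10 genes were named, together with the 6 genes most like their sum, the highest and lowest gene of each pathway list, Aurkb and Plk1. The members and lists were chosen with earlier results of these data known. Aurkc was not analysed here, and 2 of 5 red blood cell, 3 of 5 immune and 6 of 7 fibroblast and mural markers were used. Exon lengths and positions are those of GENCODE M21 on GRCm38, and promoters those of RefSeq on GRCm38.p6. The longest transcript of each of the 10 genes was compared with all transcripts of other genes. Only Tacc3 (Tmem129) and Ckap2l (Gm14024) had a match of 150 or more bases at 95% identity, both from genes on the opposite strand. The 172 annotated exon bases that Nusap1 shares with Oip5 did not appear as such a match. In Ckap2l the overlap covers 5.77% of its exon bases.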

Additional observations from a re-analysis of the deposited data

Results flagged for a closer look

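Cells that stand far from the others of their group were looked for in the 29 gene and group pairs that could be tested, with Dixon's 95% limit. It marked 9, where a rate of 1 in 20 would give about 1.45. That rate is for independent values of normal spread. Here many values are near 0 and the genes share cells, so no excess over chance can be read from it. The E14.5 negative group was not tested, because the limit is used here for 4 to 10 cells and it has 11. In that group N24 held 99.9% of the Tpx2 and 99.6% of the Ckap2l counts. Of the 9, 8 were in the 6 P5 negative cells, each with 1 cell above the rest. L2N9 was highest for Nusap1 at 174 CPM, Ckap2l at 88.2 CPM, Tpx2 at 56.0 CPM, Hmmr at 9.53 CPM and Dlgap5 at 4.72 CPM. L2N7 was highest for Ckap2 at 190 CPM and Ckap5 at 81.3 CPM, and L2N10 for Tacc3 at 45.9 CPM. The next highest cell was at 34.9 CPM for Nusap1, 15.3 CPM for Ckap2 and at most 1.23 CPM for the other 6. Different cells thus held different genes of the set: L2N9 had 0.0908 CPM of both Ckap5 and Tacc3, and L2N7 had no count of Tacc3, Hmmr or Dlgap5. Geminin was at 181 CPM in L2N9, 10.6 CPM in L2N10 and 0.0352 CPM in L2N7. The ninth was Psrc1 in the E14.5 positive cell G25, at 36.3 CPM beside 11.6 CPM in the next cell, and G25 also had the highest summed level of the 10 genes.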

How the results depend on the processing

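Each group is 1 sample of 6 to 11 cells, so no ratio has a replicate check, and counting intervals say nothing of the spread between animals. No paired analysis was possible because each group is 1 sample and the cells' numbers are only names. Between positive cells of the 2 ages, 2 genes were called higher with edgeR TMM factors, 2 with DESeq2 size factors and 4 at a 2-fold limit, against 0. Of all genes, 19.8% were called higher at the main setting and 30.3% at the 2-fold limit. For every other setting in this section the share of all genes was not counted, so those counts have no background beside them. Leaving out 1 cell gave 0 to 2 higher and 0 to 1 lower, the latter without L2P8. Between negative cells, P5 over E14.5, the median log2 ratio was -0.040 with at least 100 counts per gene, against 0.86, since Aurka drops out. Leaving out 1 cell there gave a median of -1.35 to 4.51, with -0.23 without L2N7, 2 to 7 genes called higher and 1 to 4 lower. Ckap2 ran from -1.51 (without L2N7) to 4.72, Hmmr from -0.88 (without L2N9) to 5.67 and Dlgap5 from -9.54 to 4.31 (without N24). For positive over negative cells at E14.5 the median was 4.37 to 12.01 when 1 cell was left out and 10.08 within title numbers 1 to 10, a split chosen after seeing the data. At P5 it was 4.75 to 10.08, and 4.18 after thinning to a fixed depth. The median rho between the genes was 0.60 in E14.5 positive cells alone, against 0.78. The cause of these shifts was not tested. The counts called at E14.5 (8 to 10) and at P5 (9 to 10) stayed within 1.5-fold when 1 cell was left out and at the 8-fold limit (7 and 8), and no setting tried called a gene lower in either.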
